A study of Bos taurus with 8 samples.

Results

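The cytokine genes IL6, IL1A, IL1B and TNF were followed across 8 arrays of cultured bovine retinal glia exposed to HIV-1 proteins. Their probes were taken by gene name from the array annotation, which gave 11 of the 51282 probes of the array, and all 4 genes were among the 12106 genes tested. The TAT group (3 arrays, letters A, B and C) had received HIV-1 TAT, the viral transactivator, at 100 ng/ml for 24 h. The gp120 group (3 arrays, letters A, B and C) had received the viral envelope glycoprotein gp120 at 60 ng/ml for 24 h, and the control group had 2 arrays (letters A and B). All groups were labelled as primary Müller glia, the supporting glia that span the retina, although the extraction text calls the cells astrocytes, and had been grown for 18 to 21 days before use, and each RNA was read with 1 dye on 1 array of 1 slide. The treatment text is the same for every sample and names both proteins, so the groups follow the titles alone. The labels do not say what the letters stand for, nor whether samples came from separate animals or cultures, so the p-values measure the spread between these samples, which may be technical.

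IL-6, IL-1 and TNF are secreted signals that start and carry inflammation. IL-1α, IL-1β and TNF act through receptors that switch on the transcription factor NF-κB, and IL-6 is one of the genes that NF-κB turns on. IL-6 itself signals through the gp130 chain, JAK kinases and STAT3, and in the retina all of these can be made by microglia and, to a lesser degree, by Müller glia.

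The probe sequences show what was read under each name. The file gave 3 probes the name IL6, of which A_73_P035016 and A_73_107706 carry the IL6 accession. The third, A_73_P048171, carries the accession of LOC517016 in the RefSeq table of bovine genes and lies on another chromosome. Capitals mark the longest stretch that A_73_P035016 and A_73_P048171 share, 7 of 60 bases.

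A_73_P035016: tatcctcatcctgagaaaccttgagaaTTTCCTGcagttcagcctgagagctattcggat

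A_73_P048171: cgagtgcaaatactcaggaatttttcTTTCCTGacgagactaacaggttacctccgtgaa

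The first lies at chr4:32760426-32760485 and the second at chr8:24746995-24747054, both on the plus strand of HGSC Btau_3.1. The second was well above background on 0 of 8 arrays, with levels of -7.92 to -6.76, and took no further part. Among the 4 IL1B probes, A_73_P111451 and A_73_P108091 overlap, and the 50 bases they share are in capitals, so their values are readings of nearly the same stretch.

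A_73_P111451: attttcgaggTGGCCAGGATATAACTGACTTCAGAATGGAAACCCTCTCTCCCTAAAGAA

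A_73_P108091: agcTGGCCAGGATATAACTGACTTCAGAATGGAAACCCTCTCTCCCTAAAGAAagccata

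They lie at chr11:48250103-48250162 and chr11:48250096-48250155 on the minus strand. The brightest probes of IL1A and IL1B lie 61.5 kb apart on chromosome 11, on the same strand. TNF was read by 2 probes on chromosome 23, of which A_73_120282 (chr23:27532093-27532152, minus strand) is shown because it gave a second, separate reading of the gene.

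A_73_120282: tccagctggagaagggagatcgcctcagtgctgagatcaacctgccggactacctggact

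No stretch over 7 bases was shared between any other probes of 1 gene name. Of the 11 probes, 9 passed the filter on dim probes, and those 9 were well above background on all 8 arrays. The second IL1A probe, A_73_P108101, was well above background on 1 array, TAT A, and did not pass.

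Levels are given as log2 signal relative to the 75th percentile of the same array, from the brightest probe of each gene, and levels of different probes are not set against each other. Between 55.5% and 64.6% of the spots of an array were well above background, and 0 were saturated. The 3 letter A arrays and control B lay in row 1 of the slide, and the other 4 in row 2. The gp120 B and gp120 C arrays were read in another scan than the other 6. The labelled cell type was checked against marker genes. Of 12 Müller glia markers 7 were tested, among them VIM and GLUL with levels above 5 on every array, whereas GFAP and RLBP1 were each well above background on 2 arrays. All 18 microglia and macrophage markers were tested, with 17 well above background on all 8 arrays, and C1QA had a level of 6.61 to 7.16. Of 9 T and B cell markers 5 were tested, of 8 fibroblast and stromal markers 7, of 6 endothelial markers 5 and of 6 retinal pigment epithelium markers 2. In whole-culture RNA, fewer cells of a type and less RNA per cell cannot be told apart.

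IL6, the cytokine that signals through gp130, varied more over the 8 arrays than all but 0.512% of the genes tested. Its SD was 2.02, where the median gene had 0.333. Its level was 3.69, -2.74 and -0.47 on TAT A, B and C, -0.10, -1.50 and -1.31 on gp120 A, B and C, and 0.91 and -1.94 on control A and B. TAT A stood far above the other arrays and TAT B lowest of all, so the TAT group held both ends of the range and overlapped the others. The group means were 0.16 ± 3.26 with TAT, -0.97 ± 0.76 with gp120 (SD, n = 3 each) and -0.52 ± 2.02 in control (SD, n = 2). The second probe had 3.01, -3.01 and -1.02 on TAT A, B and C, -0.81, -1.57 and -1.59 on gp120 A, B and C, and 0.21 and -2.25 on control A and B. It followed the brightest probe to within 0.375 on every array once the mean gap between the probes was removed.

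IL1A encodes IL-1α, the form that can act without cleavage. Its level was 1.57, -0.99 and -0.54 on TAT A, B and C, -0.73, -0.92 and -0.63 on gp120 A, B and C, and -0.02 and -0.14 on control A and B. TAT A was again the highest array, and all 3 gp120 arrays lay below both control arrays. The means were 0.01 ± 1.37 with TAT, -0.76 ± 0.15 with gp120 (SD, n = 3 each) and -0.08 ± 0.09 in control (SD, n = 2). The SD over 8 arrays was 0.829, exceeded by 8.39% of genes.

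IL1B encodes IL-1β, which caspase-1 cleaves into its active form. Its level was 4.20, 0.60 and 0.36 on TAT A, B and C, 3.03, 0.08 and -0.08 on gp120 A, B and C, and 3.28 and 0.80 on control A and B. The 3 letter A arrays formed one cluster and the other 5 another, with no array between 0.80 and 3.03. The means were 1.72 ± 2.15 with TAT, 1.01 ± 1.75 with gp120 (SD, n = 3 each) and 2.04 ± 1.76 in control (SD, n = 2), and 0.983% of genes had a larger SD over the 8 arrays.

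TNF encodes tumour necrosis factor, released from the membrane by ADAM17. Its level was 1.31, -1.004 and -0.58 on TAT A, B and C, 1.15, -0.75 and -0.23 on gp120 A, B and C, and 1.21 and 0.21 on control A and B. The letter A arrays lay within 0.17 of each other and above the other 5. The means were -0.09 ± 1.23 with TAT, 0.06 ± 0.98 with gp120 (SD, n = 3 each) and 0.71 ± 0.71 in control (SD, n = 2). No order of the 3 groups exceeded the spread within them for IL6, IL1B or TNF, and for IL1A the TAT group overlapped both others.

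**Figure D1:**
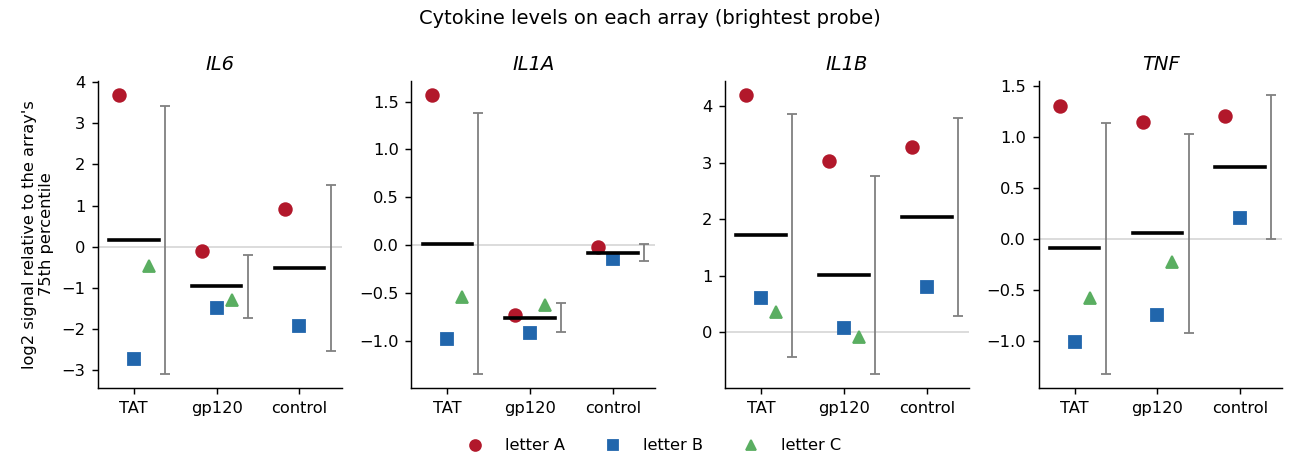
Level of each cytokine gene (y axis, log2 signal of its brightest probe relative to the 75th percentile of the array; each panel has its own scale) by group, with 1 point per array marked by letter. Black lines are group means and grey bars the SD (n = 3 with TAT, 3 with gp120, 2 in control); the letter A arrays of IL1B lie between 3.03 and 4.20 and the other 5 between -0.08 and 0.80.

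Whether TAT changed the cytokines was tested on log2 levels with limma, with p-values adjusted by the Benjamini-Hochberg method over all genes tested and a threshold of 0.05. None of the 4 genes passed, and over all genes 0 of 12106 passed (0%), with 154 at an unadjusted p under 0.05 (1.27%). The differences, TAT minus control, were 0.67 for IL6 (SE 1.71), 0.10 for IL1A (SE 0.67), -0.32 for IL1B (SE 1.43) and -0.80 for TNF (SE 0.79). The 95% interval of IL6 ran from -3.30 to 4.65 and that of TNF from -2.64 to 1.04, so changes of several fold in either direction for IL6 were within the error of this fit. The fit had no block for letter, so its error took in the letter difference. None of the 4 genes was without overlap between the TAT and control arrays, which held for 14% of all genes. Leaving out single arrays turned the sign of 3 cytokines. Without TAT A the difference of IL6 was -1.09 and that of IL1A -0.68, and without control A the difference of IL1B was 0.92, whereas TNF ran from -1.50 to -0.30 without each single array in turn. With the letters as a block the differences were 0.92 for IL6 (SE 1.01) and 0.20 for IL1A (SE 0.60). They were 0.29 for IL1B (SE 0.28) and -0.61 for TNF (SE 0.31), and none passed. The 95% interval of IL6 was then -1.53 to 3.37. With slide row as a block the differences were 2.88 for IL6, 0.89 for IL1A, 1.93 for IL1B and 0.44 for TNF, so the signs of IL1B and TNF turned, and none passed. Row 1 held 1 TAT array, of letter A, beside both controls, so row and letter are partly shared.

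For gp120 minus control, again 0 of the 4 genes and 0 of 12106 passed (0%), with 312 genes at an unadjusted p under 0.05 (2.58%). The differences were -0.45 for IL6 (SE 1.71), -0.68 for IL1A (SE 0.67), -1.03 for IL1B (SE 1.43) and -0.65 for TNF (SE 0.79), all below 0. The probes differed in size, with -0.12 for the second TNF probe and -1.49 to -0.39 over the 4 IL1B probes. IL1A was the 1 gene of the 4 whose gp120 and control arrays did not overlap, on the lower side, as did 7.48% of all genes (13% in either direction). Its adjusted p in limma was 0.999. With the letters as a block all 4 gp120 differences stayed below 0 and none passed. They were -0.21 for IL6 (SE 1.01), -0.57 for IL1A (SE 0.60), -0.42 for IL1B (SE 0.28) and -0.46 for TNF (SE 0.31). Row 1 of the slide held 1 gp120 array, of letter A, beside both controls, so row and letter are partly shared. With row as a block the gp120 differences were 1.75 for IL6, 0.12 for IL1A, 1.22 for IL1B and 0.59 for TNF, so every sign turned.

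TAT was also set directly against gp120, and 0 of the 4 genes and 0 of 12106 passed (0%), with 302 at an unadjusted p under 0.05 (2.49%). The differences, TAT minus gp120, were 1.13 for IL6 (SE 1.53), 0.77 for IL1A (SE 0.60), 0.71 for IL1B (SE 1.28) and -0.15 for TNF (SE 0.71). None of the 4 was without overlap, against 6.68% of all genes. With the letters as a block, which removes the letter difference from the error, the IL1B difference kept its size of 0.71. Its SE was then 0.24 and its 95% interval 0.12 to 1.30, and limma's adjusted p was 0.642 (unadjusted 0.0248). In that fit 911 of 12106 genes had an unadjusted p under 0.05 and 0 passed. IL1B was higher on the TAT array in 3 of 3 same-letter pairs by its brightest probe. The share of genes higher in all 3 pairs was not counted. The 2 overlapping IL1B probes were lower on the TAT array for letters B and C, with differences of -0.38 and -0.01 in B and -0.34 and -0.35 in C, so the probes disagreed in sign there.

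The same-letter pairs show where the spread lay. A pair is 1 array against 1 array and carries no test. In letter A, IL6 was 2.78 higher on the TAT array than on the control array, a 6.86-fold higher signal, and 6 of the 12106 genes had a larger positive difference in that pair. The second IL6 probe gave 2.80. IL1A was 1.59 higher on TAT A than on control A, IL1B 0.92 and TNF 0.10 (-0.10 by its second probe), so the 3 interleukins were all above their control there, with differences over 1 on the higher side in 2.98% of all genes. IL1A's dim probe, which did not pass the filter, was well above background on TAT A alone of the 8 arrays.

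In letter B the same comparison ran the other way. IL6 stood at -0.80, IL1A at -0.84, IL1B at -0.20 and TNF at -1.22 on TAT B against control B, and 1.38% of genes were over 1 lower in that pair. Letter C had no control array. For gp120 A against control A the differences were -1.01 for IL6, -0.71 for IL1A, -0.25 for IL1B and -0.06 for TNF, where 2.07% of genes were over 1 lower. For gp120 B against control B they were 0.44, -0.78, -0.72 and -0.96, in the same order of genes. There the second TNF probe gave 0.57, and the IL1B probe A_73_P108091 gave 0.34, so the probes of both genes disagreed in sign. IL1A was therefore lower on the gp120 array in 2 of 2 pairs, by a similar amount, and IL6 was lower in 1 and higher in the other. Larger falls than that of IL1A were seen in 4.47% of all genes in letter A and 7.03% in letter B. The share of genes lower in both pairs was not counted.

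Between the proteins, IL6 was 3.79 higher on TAT A than on gp120 A (13.8-fold), a difference that 2 of 12106 genes exceeded, where 2% of genes were over 1 higher. It was -1.24 in letter B, where 2.92% of genes were over 1 lower, and 0.84 in letter C. IL1A was 2.30 higher in letter A and within 0.1 of 0 in the other letters, at -0.06 in B and 0.09 in C. By its brightest probe TNF stood at 0.17, -0.26 and -0.35 in letters A, B and C, inside the SD over all genes of each pair (0.426 to 0.578). Its second probe gave 0.39, -1.18 and -0.55, outside that SD in letters B and C.

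**Figure D2:**
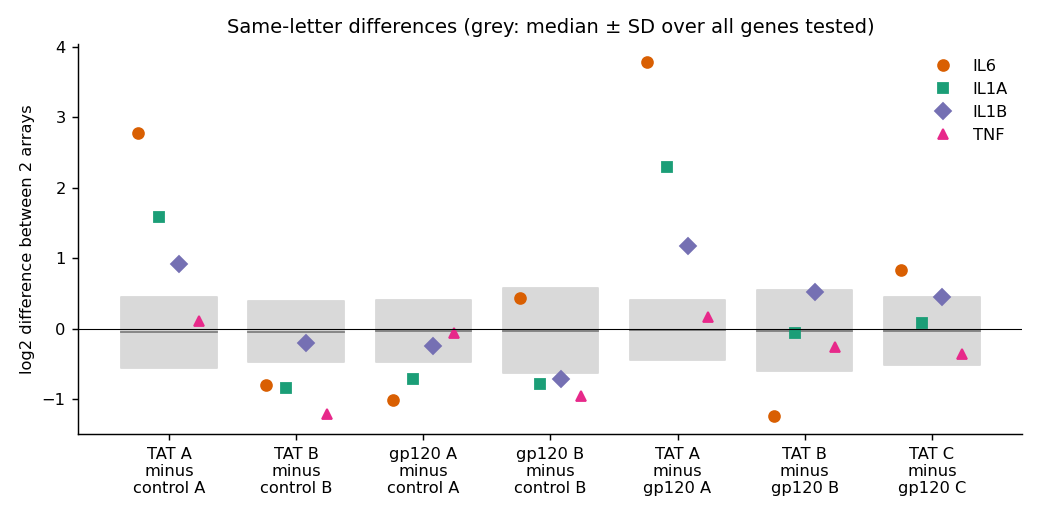
Differences between 2 arrays of the same letter (y axis, log2) for each cytokine in 7 pairs, with grey boxes at the median ± SD over the 12106 genes tested. IL6 stands at 2.78 in TAT A minus control A and at -0.80 in TAT B minus control B.

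The letters were then compared directly, as letter A minus the mean of letters B and C with the treatment group in the fit. The higher levels of these genes in letter A were already known when the genes were chosen, so the tests describe the size and error of that difference and give no independent support for it. IL1B was 3.18 higher in letter A (SE 0.22, 95% interval 2.64 to 3.72), with 3.51 ± 0.62 in letter A (SD, n = 3) and 0.35 ± 0.36 in letters B and C (SD, n = 5). That is a 9.05-fold higher signal, with a limma adjusted p of 0.00129, the 50th smallest p of all genes. IL6 was 3.03 higher (SE 0.79, adjusted p = 0.0424), with 1.50 ± 1.96 in letter A (SD, n = 3) and -1.59 ± 0.84 in letters B and C (SD, n = 5). TNF was 1.59 higher (SE 0.24, adjusted p = 0.00958), with 1.22 ± 0.08 in letter A (SD, n = 3) and -0.47 ± 0.47 in letters B and C (SD, n = 5). IL1A had a difference of 0.88 (SE 0.47, adjusted p = 0.227), which ran from 0.0041 to 1.38 without single arrays, and its letter ranges overlapped, from -0.73 to 1.57 in letter A and from -0.99 to -0.14 in letters B and C.

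So 3 of the 4 cytokines passed, all higher in letter A. The background was large, since 2557 of 12106 genes passed (21.1%), 9.72% higher and 11.4% lower. The same 3 cytokines did not overlap between letter A and the other letters, as held for 29.3% of all genes, 13.7% on the higher side. Each of the 4 IL1B probes was higher in letter A, by 2.15 to 3.18, and both TNF probes, by 1.55 and 1.59, all with an adjusted p of at most 0.0149 in a limma fit over 31546 probes. The second IL6 probe gave 2.67 with an adjusted p of 0.0669.

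**Figure D3:**
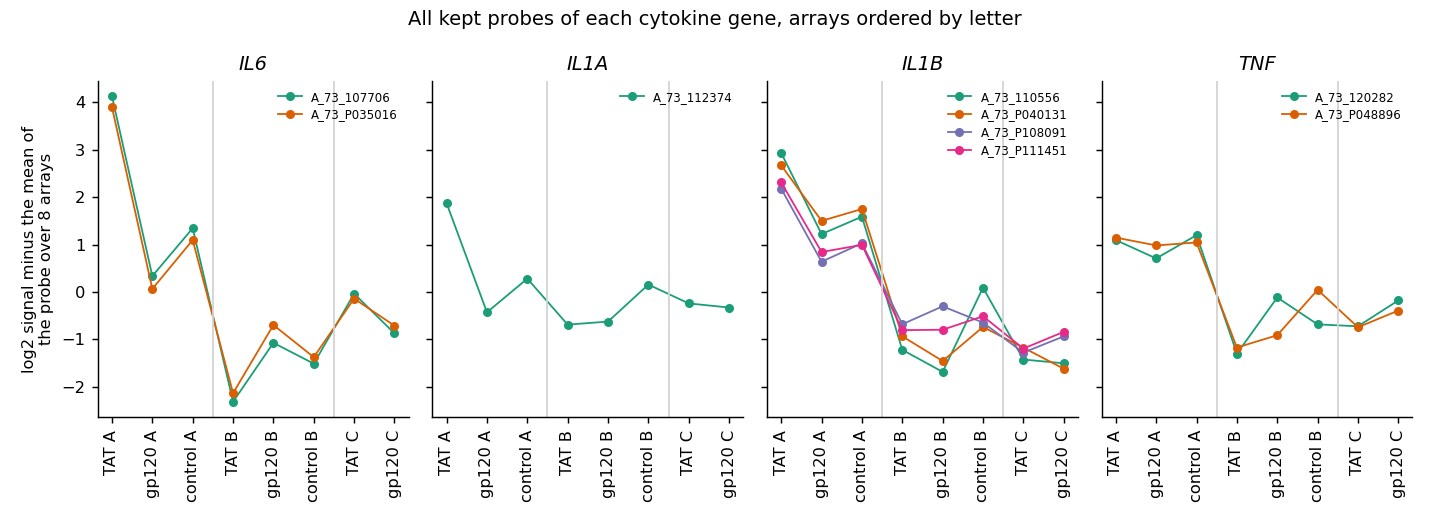
Profiles of the 9 cytokine probes that passed the filter (y axis, log2 signal minus the mean of that probe over 8 arrays), arrays ordered by letter with grey lines between letters. The IL1B and TNF probes are high on the 3 letter A arrays, and both IL6 probes peak on TAT A and are lowest on TAT B.

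The slide row moved with the letter. All 3 letter A arrays lay in row 1, where control B was the single array of another letter, and row 2 held no letter A array. With row as a block the differences were 2.59 for IL1B (adjusted p = 0.0712), 2.23 for IL6 (adjusted p = 0.506), 0.76 for TNF (adjusted p = 0.259) and -0.061 for IL1A (adjusted p = 0.977), and 7 genes passed in all. Within row 1, control B had 0.80 for IL1B, below the 3.03 to 4.20 of the letter A arrays, and 0.21 for TNF, below their 1.15 to 1.31. For IL6 control B had -1.94, and the letter A arrays -0.10 to 3.69. The IL6 call also needed single arrays. Without TAT A its difference was 1.68 (adjusted p = 0.0909), and it did not pass without control A, control B, TAT C or gp120 C either. The TNF call was lost without gp120 A (1.57, adjusted p = 0.0546), whereas IL1B passed without each single array in turn (2.85 to 3.38).

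Of 41 genes of the cytokines' pathways, grouped by role, 34 were tested. With TAT 0 of 34 passed, with a median difference of -0.10 where the median of all genes was -0.03, and 9 of 34 were above 0 against 45.5% of all genes. With gp120 0 of 34 passed, with a median of -0.08 (all genes -0.01) and 15 of 34 above 0 against 48.5% of all genes. Between letters, 9 of 34 passed on the higher side and 1 on the lower, against 9.72% and 11.4% of all genes, with a median of 0.21 (all genes -0.01). With slide row as a block 0 of 34 passed, where 7 of all 12106 genes passed. Without single arrays 5 to 9 passed higher, where 695 to 2207 of all genes passed in either direction. These settings were chosen for this list after seeing the data.

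Each role held few genes, and its count is read against the 21.1% of all genes that passed between letters. Among the receptors 1 of 6 tested passed. IL1RAP, the accessory chain of the IL-1 receptor, had 0.26 to 0.86 on the letter A arrays and -1.14 to -0.26 on the others, a difference of 1.105 (SE 0.214, adjusted p = 0.0183). Its partner IL1R1 had 0.28 (SE 0.24) and the gp130 gene IL6ST -0.47 (SE 0.15), and neither passed. The decoy receptor gene IL1R2 was well above background on 1 array and was not tested. Of the processing enzymes 0 of 4 passed, with differences of -0.10 to 0.15 for CASP1, NLRP3 and PYCARD, which build the inflammasome, and ADAM17, which sheds TNF.

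Of 12 adaptors and kinases, JAK2, a kinase bound to gp130, was 0.85 higher in letter A (SE 0.14, adjusted p = 0.0114). IRAK4, the kinase that follows MYD88 at the IL-1 receptor, was the 1 gene that passed on the lower side, with -0.64 (SE 0.14, adjusted p = 0.0275). MYD88 itself stood at 0.00 (SE 0.21) and STAT3, the factor that IL-6 activates, at -0.44 (SE 0.13, adjusted p = 0.0611).

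Of 7 inhibitors of the same pathways, 5 were above 0 in letter A and 2 below. Of these, 3 passed, all on the higher side, of which 1 was not measured on every array. IL1RN, the IL-1 receptor antagonist, had 5.07 to 5.76 on the letter A arrays and 3.23 to 4.38 on the others, a difference of 1.71 (SE 0.24, adjusted p = 0.00724). TNFAIP3, the A20 brake on NF-κB, was well above background on all 3 letter A arrays (-4.46 to -4.10) and on 2 of the other 5, so its difference is not given as a measured size. Over the genes well above background on all 8 arrays, which leaves it out, 8 of 33 pathway genes passed higher and 2 lower. Among all genes under that filter 2712 of 11067 passed, 44.1% of them on the higher side. NFKBIA, which holds NF-κB in the cytoplasm, was 0.52 higher (SE 0.13, adjusted p = 0.0417). ZFP36 (0.56, SE 0.21) and IL10, an anti-inflammatory cytokine (0.37, SE 0.17), did not pass, and SOCS3 was not tested.

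Of the inducible targets all 5 tested were above 0 in letter A and 4 passed. CEBPD, at 0.41 (SE 0.15, adjusted p = 0.10), did not pass. SAA3, an acute-phase serum amyloid, had 5.47 on TAT A, 5.02 on gp120 A and 5.13 on control A. On the other 5 arrays it had 1.14 to 1.65, which gave a difference of 3.82 (SE 0.17, adjusted p = 4.45e-04), and a row block left it at 4.03 (adjusted p = 0.0563). NOS2, the inducible nitric oxide synthase, was 2.21 higher (SE 0.31, adjusted p = 0.00724), with 0.62 to 1.58 on letter A arrays and -1.82 to -0.40 on the others. PTGS2, the inducible cyclooxygenase, was 1.30 higher (SE 0.19, adjusted p = 0.00768) and NFKBIZ, a nuclear NF-κB partner, 0.69 higher (SE 0.14, adjusted p = 0.0195). LIF, CSF3 and IL33 were well above background on 0 arrays, CSF2 on 1 and IL11 on 2, and were not tested.

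**Figure D4:**
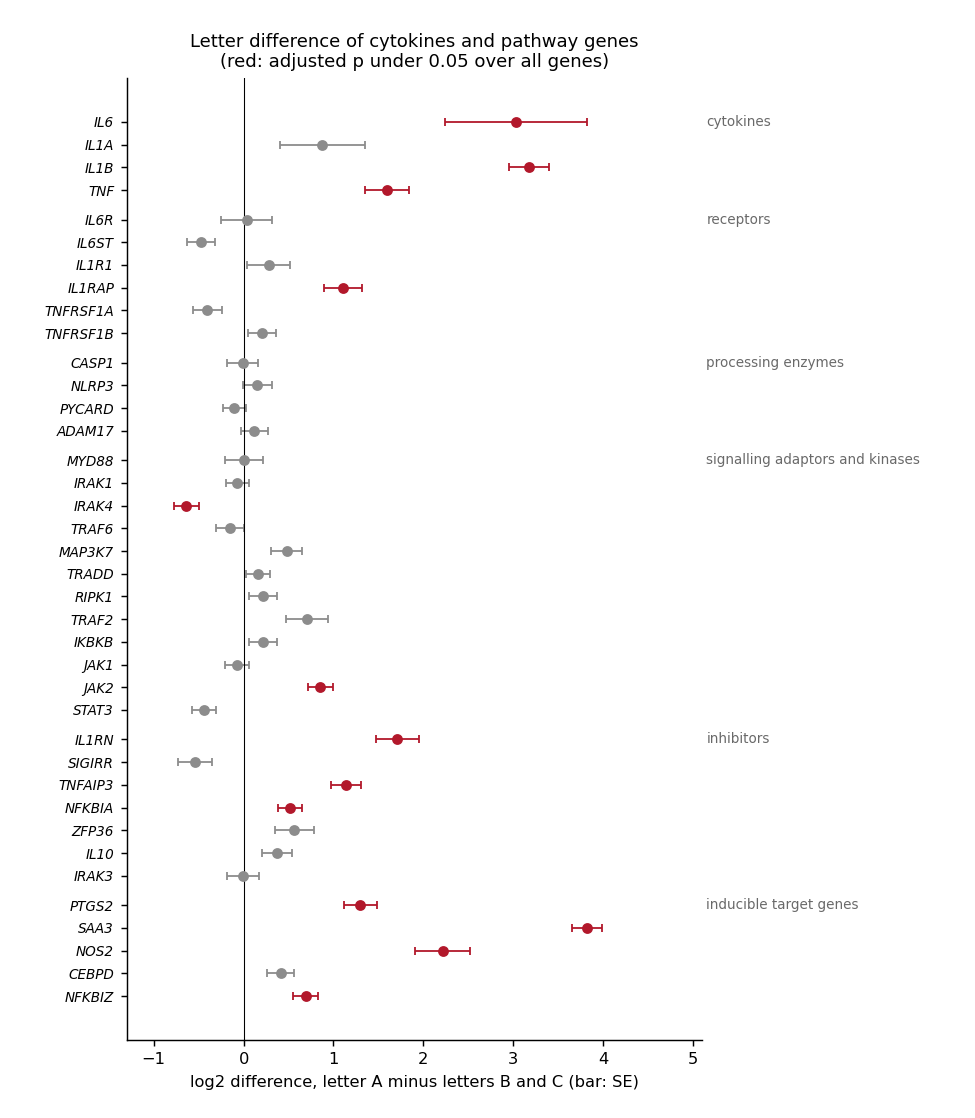
Difference between letter A and letters B and C (x axis, log2) for the 4 cytokines and 34 pathway genes grouped by role, with bars for the SE and red for an adjusted p under 0.05 in limma. SAA3 (3.82), IL1B (3.18) and IL6 (3.03) stand farthest to the right and IRAK4 (-0.64) is the red point below 0.

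Marker genes of other cell types were counted in the same letter comparison, in which 9.72% of all genes passed higher and 11.4% lower. The summed linear level of the 18 microglia and macrophage markers was 718 to 811 on the letter A arrays and 565 to 725 on the others, in multiples of the 75th percentile signal. Their mean log2 level was 3.96 to 4.30 on the letter A arrays and 3.49 to 3.87 on the others, without overlap. Of the 18, 13 were above 0 and 5 below (49.0% of all genes above 0), with a median of 0.29 (all genes -0.01). Between letters 2 of the 18 passed higher, LYZ, a lysozyme of myeloid cells (2.97, SE 0.21), and CYBB, the phagocyte oxidase (mean level 3.66 in letter A and 2.52 in the others). TREM2, a myeloid receptor, passed lower (-1.42, SE 0.13). Among those that did not pass were CD14 (0.66, SE 0.20), the myeloid genes AIF1, CSF1R and C1QA (-0.04 to 0.45) and the leukocyte gene PTPRC (-0.19). With slide row as a block 0 of the 18 passed, where 7 of all 12106 genes passed. LYZ then had 2.49 (limma adjusted p = 0.0712), CYBB 0.69 (adjusted p = 0.394) and TREM2 -1.37 (adjusted p = 0.0881). Of 7 Müller glia markers 1 passed higher, S100B (0.68), and CRYAB (-1.48) and SLC1A3 (-1.002) passed lower, with summed levels of 348 to 465 in letter A and 326 to 447 in the others. The T and B cell sum was 9.49 to 12.1 in letter A and 9.55 to 10.7 in the others, and CD8A, well above background on 6 arrays, was higher in letter A (3.82). The endothelial sum was 4.92 to 5.21 in letter A and 2.65 to 4.33 in the others, with 2 of 5 passing higher and 1 lower. Their mean log2 level overlapped, at -2.19 to -1.94 in letter A and -2.16 to -1.62 in the others. Of the 5 endothelial markers 2 were above 0 and 3 below, with a median of -0.39. The fibroblast sum overlapped, at 155 to 294 and 163 to 225, and 0 of 7 passed. The pigment epithelium sum was 0.324 to 0.341 and 0.350 to 0.834, and 0 of 2 passed. Their mean log2 level overlapped, at -2.98 to -2.92 in letter A and -4.11 to -1.27 in the others. The part of these cells in the cytokine difference was not tested.

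Across treatment groups, the fibroblast sum was 214 to 294 with TAT, 155 to 199 with gp120 and 158 to 163 in control. All 7 fibroblast markers were above 0 for TAT minus control, against 45.5% of all genes. For gp120 minus control 6 of 7 were above 0, against 48.5% of all genes, and none passed in either comparison. The microglia sum was 654 to 718 with TAT, 565 to 754 with gp120 and 635 to 811 in control, overlapping in each case. The part of either in the cytokine values was not tested.

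The genes whose profile over the 8 arrays lay nearest to each cytokine were found by the root mean square (RMS) difference of centred log2 levels, among 11057 other genes well above background on every array. All points share the 8 arrays, and the smallest differences are a description. Nearest to IL6 were PF4 (RMS 0.684), a chemokine of platelets and macrophages, MMP1 (0.800), an interstitial collagenase, and the neutrophil chemokines CXCL5 (0.885) and CXCL2 (0.914), where the median gene lay 1.91 away. PF4 had 4.14, -1.30 and 2.07 on TAT A, B and C, 1.47, 0.24 and 1.54 on gp120 A, B and C, and 2.40 and -0.46 on control A and B. Like IL6 it was highest on TAT A and lowest on TAT B.

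Nearest to IL1B were SLC16A3 (RMS 0.360), a lactate exporter, RETN (0.417), the hormone resistin, GRO1 (0.451), a chemokine, and SDS (0.477), a serine dehydratase, with the median gene at 1.61. SLC16A3 had 3.96, 1.33 and 0.51 on TAT A, B and C, 3.03, 0.72 and 0.75 on gp120 A, B and C, and 3.52 and 0.89 on control A and B, so it fell into the same clusters by letter as IL1B. Nearest to TNF were H2AC6 (RMS 0.233), a histone H2A gene, UNC13D (0.241), a factor of granule release, C10H15orf48 (0.254) and FAM107B (0.261), with the median gene at 0.924. For IL1A, whose profile was led by TAT A, the nearest were GRIK2 (RMS 0.384), a glutamate receptor subunit, RGS16 (0.407), a regulator of G-protein signalling, RAB37 (0.414), a vesicle GTPase, and PROCR (0.421), the protein C receptor, with the median gene at 0.831. Among the cytokines themselves IL1B was the 6th nearest gene to IL6 (RMS 1.01), but IL6 ranked 198th among the genes nearest to IL1B. IL1B and TNF lay 0.846 apart, where TNF ranked 80th among the genes nearest to IL1B and IL1B 3686th among those nearest to TNF. The ranks were thus not mutual.

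**Figure D5:**
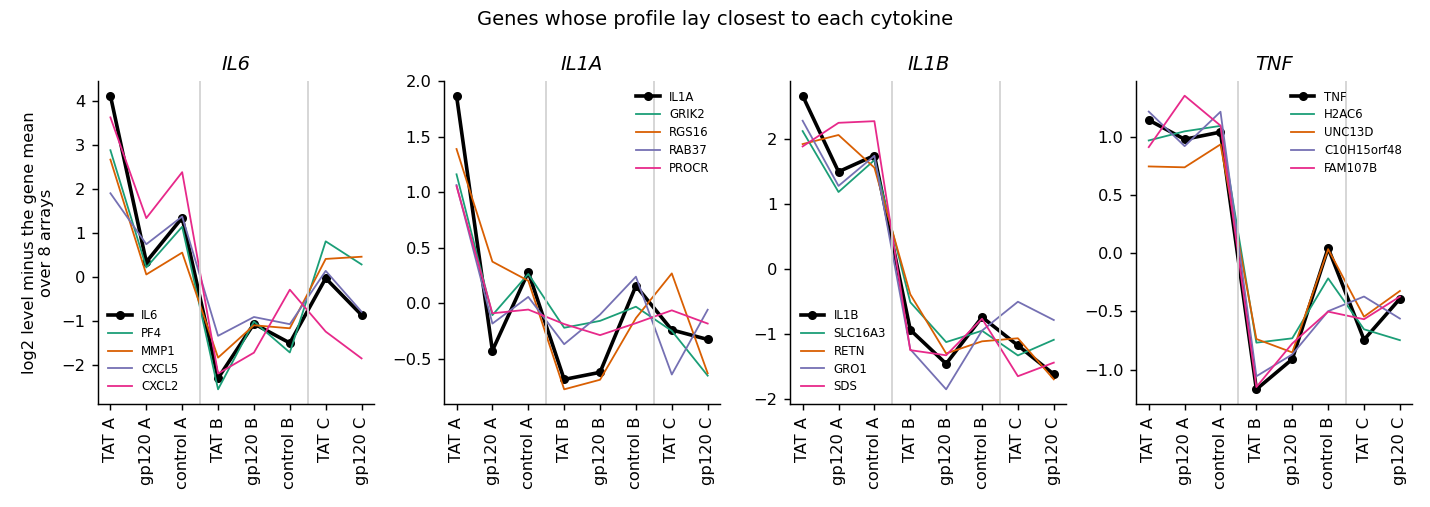
Profiles of each cytokine (black) and its 4 nearest genes (y axis, log2 level minus the mean of that gene over 8 arrays; each panel has its own scale), arrays ordered by letter. The genes near IL1B and TNF separate the letter A arrays from the rest, and those near IL6 and IL1A are highest on TAT A.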

How the data were processed

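RNA of 8 samples was read on an Agilent bovine design (029411). Per the file headers, the authors took intensity values from the scans with Agilent Feature Extraction 11.5.1.1, with background subtracted and no scaling between arrays. The deposited table of log2 values per gene name came with no account of its processing. Its column medians were -3.26, -3.21 and -3.25 for TAT A, B and C, -3.25, -3.18 and -3.33 for gp120 A, B and C, and -3.20 and -3.30 for control A and B. Shifted per array, 98.0% and 97.8% of its values on gp120 B and C lay within 0.02 of the scanner values, and 8.48% to 15.2% on the other 6. On those 2 arrays its scale was log2 and its direction that of the scanner values. The origin of its centring, and how the other 6 were treated, are unknown. It served as an alternative.

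From each log2 processed intensity the 75th percentile of its array was subtracted. Control spots and outlier spots (4 to 37 an array) were dropped and repeated spots averaged. A probe was kept (31591 of 51282) if every array of 1 or more groups read it well above background, and the brightest probe stood for a gene. Names came from the RefSeq table by accession (28112 probes), symbol (6484) or synonym (153), 745 kept the name in the file and 15788 had none. No genome was used. The fits were made in R 4.3.3 with limma 3.58.1 (8 arrays in 1 fit, no block, two-sided, Benjamini-Hochberg over 12106 genes). The letter comparison had letter and group as terms. The method was tested on simulated data, and the number of arrays limits the precision. Figures used Python 3.11.15, pandas 2.3.3, numpy 2.4.6 and matplotlib 3.10.9.

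Letters were checked for pairing. Deviations from group means correlated at 0.323 to 0.703 in the 7 same-letter pairs and at -0.592 to 0.403 in the 14 others. With 2 controls their deviations are mirror images. TAT and gp120 arrays correlated at 0.432 within letter B and 0.703 within letter C, and at -0.07 and -0.13 across B and C. Control B, however, correlated more with TAT C (0.403) and gp120 C (0.364) than with TAT B (0.323) and gp120 B (0.326). The letters were taken to pair the arrays, which for control B with the other letter B arrays rests on the titles. Alternatives changed background correction, scaling, filter, probe rule, value source, blocks and samples. Named genes are the cytokines, the pathway list, the cell markers and the 4 genes nearest each cytokine. Members and lists were chosen with earlier results of these data known. The result of 1 cell marker is not reported here.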

Additional observations from a re-analysis of the deposited data

Results flagged for a closer look

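Some cytokine differences had opposite signs in letters A and B under the same protein, all 4 genes with TAT and 1 of 4 with gp120, with 1 array against 1 array in each letter. The difference between letters was not tested. For TAT minus control, IL6 stood at 2.78 in letter A and -0.80 in letter B, and IL1A at 1.59 in A and -0.84 in B. IL1B stood at 0.92 in A and -0.20 in B, and TNF at 0.10 in A and -1.22 in B, so by their brightest probes all 4 genes were above control in letter A and below it in letter B. The second TNF probe was at -0.10 in A and -0.62 in B. The TNF value in A and the IL1B value in B lie within the SD over all genes of those pairs, 0.505 and 0.436. For gp120 minus control, IL6 stood at -1.01 in letter A and 0.44 in letter B, whereas IL1A (-0.71 and -0.78), IL1B (-0.25 and -0.72) and TNF (-0.06 and -0.96) were below control in both letters. Groups of 2 or 3 arrays are too small to be screened for a single array that stands apart.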

How the results depend on the processing

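Precision was limited by 2 to 3 arrays a group and by slide row and scan, which are partly shared with letter and treatment. For the proteins no cytokine passed under any setting. With the letters as a replicate block IL1B was 0.29 for TAT (adjusted p = 0.98), 0.36 with letters A and B only, and no call changed. With slide row as a block TAT gave 2.88 for IL6, 0.89 for IL1A, 1.93 for IL1B and 0.44 for TNF, and within row 1, from TAT A alone, 4.20, 1.65, 2.16 and 0.60. For gp120 the row block gave 1.75 for IL6, 0.12 for IL1A, 1.22 for IL1B and 0.59 for TNF, while scan as a block, row 1 alone and scan 2 alone each gave 0.42, 0.99 and 0.44 for IL6, IL1B and TNF, from gp120 A alone. TAT minus gp120 was 0.26 for IL6, -1.31 for IL1B and -1.24 for TNF with scan as a block and within scan 2, and 3.79 for IL6, 2.30 for IL1A, 1.17 for IL1B and 0.17 for TNF within row 1. The deposited table gave IL1A -0.19 for TAT, 0.31 for gp120, -0.50 between them and -0.29 between letters, and called 4, 4 and 16 genes in those 3 protein comparisons, none a cytokine. The causes were not tested.
Between letters the count of genes past the threshold was 1539 with no filter, 5674 over single probes, 1385 in the deposited table, 7 with the row block, 999 with the scan block and 695 to 2207 without single arrays. IL6 lost its call with no filter (3.03), the mean of its probes (2.85), its other probe (2.67), the deposited table (2.90) and the row block (2.23), and gave 1.68 to 4.07 without single arrays. IL1B lost it with the row block (2.59). TNF lost it with the row block (0.76) and the scan block (1.57), and gave 1.28 to 1.87 without single arrays. IL1A was -0.061 with the row block and 0.0041 to 1.38 without single arrays. Leaving out either control gives the same letter values, since the other is then fitted exactly.
Without single arrays, with and without the replicate block, TAT minus control ran from -1.09 to 2.28 for IL6, -0.77 to 0.83 for IL1A, -1.56 to 0.92 for IL1B and -1.50 to -0.054 for TNF. For gp120 it ran from -1.88 to 0.97 for IL6, -1.20 to 0.054 for IL1A, -2.27 to 0.21 for IL1B and -1.19 to 0.095 for TNF, and TAT minus gp120 from -0.64 to 2.58 for IL6, -0.0047 to 1.27 for IL1A, -0.53 to 1.72 for IL1B and -0.85 to 0.40 for TNF. Counts of genes called were 0 to 1 for each protein against control, with 1 only without control A.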
